A study of Mus musculus with 5 samples.

Results

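The 10 genes described here are the mouse homeobox genes of the Nkx2 and Nkx6 families, namely Nkx2-1, Nkx2-2, Nkx2-3, Nkx2-4, Nkx2-5, Nkx2-6, Nkx2-9, Nkx6-1, Nkx6-2 and Nkx6-3. They are 10 of 21938 protein-coding genes of the GENCODE annotation, and were chosen by name. Peaks of H3K27me3 were counted at a gene when they touched its locus, defined as the gene body and its 5 kb flanks on the GRCm38 build. The data came from chromatin immunoprecipitation followed by sequencing (ChIP-seq) of mesenchyme dissected from the molars of wildtype C57BL/6 mice at postnatal day 3, after the epithelium had been taken off. This part of a wider study mapped where the mark lies in the tissue from which the dental root forms. Of 5 libraries, 2 were precipitated with an antibody to H3K27me3, 2 were inputs and 1 was precipitated with IgG. The H3K27me3 libraries are called replicates, and the labels do not say whether they came from separate animals, litters or pools. All values are therefore of 1 group, with no treated or mutant group, and an SD is the spread between 2 libraries.

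The NK homeobox genes encode transcription factors that set up organs and cell types in the embryo. Their products share a homeodomain, through which they bind DNA, and many also carry a domain that recruits Groucho-type corepressors. In the ventral neural tube, Sonic hedgehog turns on some of them, and they repress homeobox genes of the neighbouring progenitor zones, so that each zone keeps its own neuron type. Others act in the thyroid, lung, heart, pharynx, gut and pancreas. H3K27me3 is trimethylation of lysine 27 of histone H3. Polycomb repressive complex 2, with Ezh2 or Ezh1 as the methyltransferase, places it, and in differentiated tissues it often lies over developmental regulators of other lineages, frequently as a broad region around a start site rich in CpG dinucleotides.

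The authors' peak caller read 31245609 tags of 49 bp for replicate 1 and 50565700 tags of 74 bp for replicate 2. Replicate 1 was called against its input (22757 peaks) and also against IgG (24881 peaks), and replicate 2 was called against its own input (33379 peaks). Unless IgG is named, replicate 1 below is the list against input. The replicates differed in depth and in tag length, and what these contribute to a difference between replicates cannot be told apart from other differences of the libraries. Of the markers fixed for checking the tissue, 7 of 10 dental mesenchyme genes, 2 of 8 epithelial, 1 of 4 endothelial, 1 of 3 blood and 3 of 4 glial or neuronal genes held a peak in both replicates. The mean covered share of a locus did not pass 2.27% for any of these markers. A peak of a repressive mark does not measure expression, so the labelled tissue could not be checked this way, and in bulk chromatin a change in the share of cells and a change in the mark per cell cannot be told apart.

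All 10 genes held a peak in replicate 1 and against IgG, and 9 of 10 held one in replicate 2. Over all protein-coding genes, 25.0% held a peak in replicate 1, 25.9% against IgG and 35.7% in replicate 2. Taking both replicates together, 9 of 10 members held a peak compared with 15.7% of all genes. Members are short, with a median body of 4.33 kb against 17.4 kb over all genes, and among the 9227 genes with a body in the range of the members' lengths the share was 6.75%. The same 9 members held a peak in all 3 lists, where the share of all genes was 12.7%. Nkx2-4 was the member without a peak in replicate 2. There were 64 peaks at the members in replicate 1, 73 against IgG and 30 in replicate 2. The mean of the replicates was 47 ± 24 peaks (SD, n = 2).

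The peaks were seldom on the same bases in both replicates. Of 64 replicate 1 peaks at the members, 4 (6.25%) were overlapped by a replicate 2 peak, compared with 2.85% of all replicate 1 peaks. In the other direction 4 of 30 (13.3%) were overlapped, compared with 1.9% of all replicate 2 peaks. These pairs lay at 3 of 10 members, Nkx2-1, Nkx2-3 and Nkx6-1, and 1.6% of all genes held such a pair. Within 1 kb of a replicate 1 peak lay 23 of 30 replicate 2 peaks (76.7%), compared with 7.46% of all replicate 2 peaks. Peaks of both replicates were dense at these loci, which makes an overlap or a near peak more frequent. What this density contributes to the shares above was not tested, so they do not measure agreement between the replicates. Of the 64 replicate 1 peaks, 46 (71.9%) were also called against IgG, compared with 51.0% of the whole list. The lists of replicate 1 share the H3K27me3 library, so this last share gives the effect of the control only.

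The stretches covered by a peak of both replicates are shown first, since they are the bases on which both libraries made a call. There were 4, each also called against IgG. One, of 135 bases, lay in the untranslated region of Nkx6-1 and is not printed. The other 3 lay outside annotated exons of the member, and are given on the plus strand of GRCm38 from the RefSeq sequence of that build, with CpG dinucleotides in capitals.
Nkx6-1, chr5:101656189-101656418, 230 bases in the flank downstream of the gene: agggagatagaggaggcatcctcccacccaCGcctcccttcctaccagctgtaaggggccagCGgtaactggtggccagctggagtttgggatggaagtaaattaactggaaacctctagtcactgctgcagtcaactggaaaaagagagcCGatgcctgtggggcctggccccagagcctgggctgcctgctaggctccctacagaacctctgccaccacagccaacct
Nkx2-1, chr12:56538761-56538859, 99 bases upstream of the 5′ end, within the antisense gene Gm26973: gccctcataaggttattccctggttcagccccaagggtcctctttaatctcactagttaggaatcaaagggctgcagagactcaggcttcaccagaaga
Nkx2-3, chr19:43619723-43619747, 25 bases in the flank downstream of the gene: aaaagtggcttagaatCGggtctcc
The Nkx6-1 stretch held 3 CpG dinucleotides (1.30 per 100 bp) and 58.7% G+C, the Nkx2-3 stretch held 1 in its 25 bases, and the Nkx2-1 stretch held 0 with 49.5% G+C. The Nkx6-1 stretch lay 8578 to 8807 bp downstream of the 5′ end in the direction of transcription. The authors' caller gave fold enrichment over input for whole peaks. It was 2.96 for the replicate 1 peak, which is the Nkx6-1 stretch, and 2.52 for the replicate 2 peak of 295 bp. The Nkx2-1 stretch ran from −1951 to −1853 bp relative to the 5′ end. Fold enrichment there was 2.79 for the replicate 1 peak, which is the stretch, and 2.89 for the replicate 2 peak of 222 bp. The Nkx2-3 stretch is the last 25 bases of a replicate 1 peak with a fold enrichment of 3.05 and the first 25 bases of a replicate 2 peak with 2.40. In none of the 3 was the start site itself covered.

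The map of the peaks by member shows how the calls were spread over each locus.

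**Figure D1:**
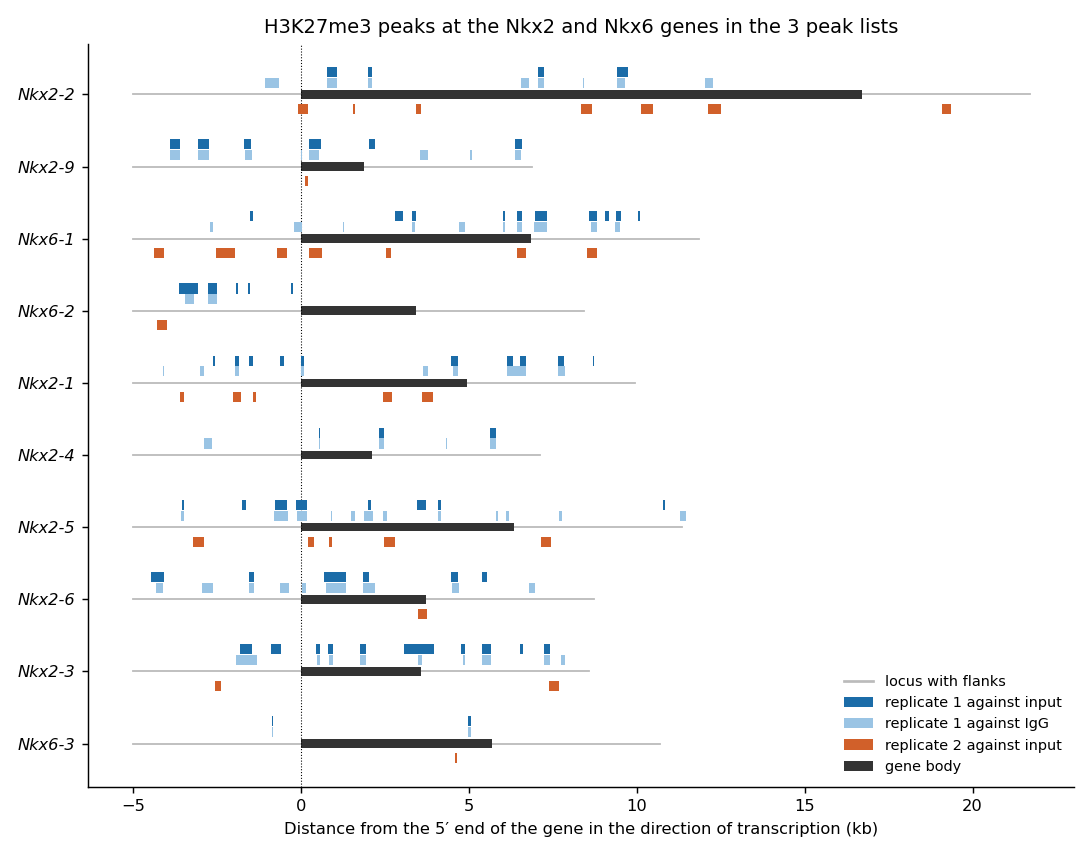
Peaks of each list at the 10 genes, plotted by distance from the 5′ end of the gene in kb in the direction of transcription. The dark bar is the gene body and the grey line the locus with 5 kb flanks. Replicate 2 had 7 peaks at Nkx2-2 and 7 at Nkx6-1, 1 peak each at Nkx2-6, Nkx2-9, Nkx6-2 and Nkx6-3, and 0 at Nkx2-4, while replicate 1 had between 2 and 10 peaks at every gene.

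The covered share is the percentage of the bases of a locus that lie within peaks. A single short peak is a larger share of a short locus than of a long one. Members are shorter than most genes, and the percentiles over all genes given here and below are not matched for length. The median covered share over the members was 8.55% in replicate 1, 9.35% against IgG and 2.93% in replicate 2 (mean of the replicates 5.74 ± 3.98%, SD, n = 2). Over all protein-coding genes the median was 0 in each list, and the 99th percentile was 4.24% in replicate 1, 5.41% against IgG and 4.24% in replicate 2. In replicate 1, 9 of 10 members lay above the 95th percentile of all genes, and 7 lay above the 99th. In replicate 2, 7 lay above the 95th percentile and 4 above the 99th. Those 4 were Nkx2-1, Nkx2-2, Nkx2-5 and Nkx6-1. Summed over the 155.3 kb of the member loci, peaks covered 12.6 kb in replicate 1, 13.6 kb against IgG and 7.60 kb in replicate 2.

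**Figure D2:**
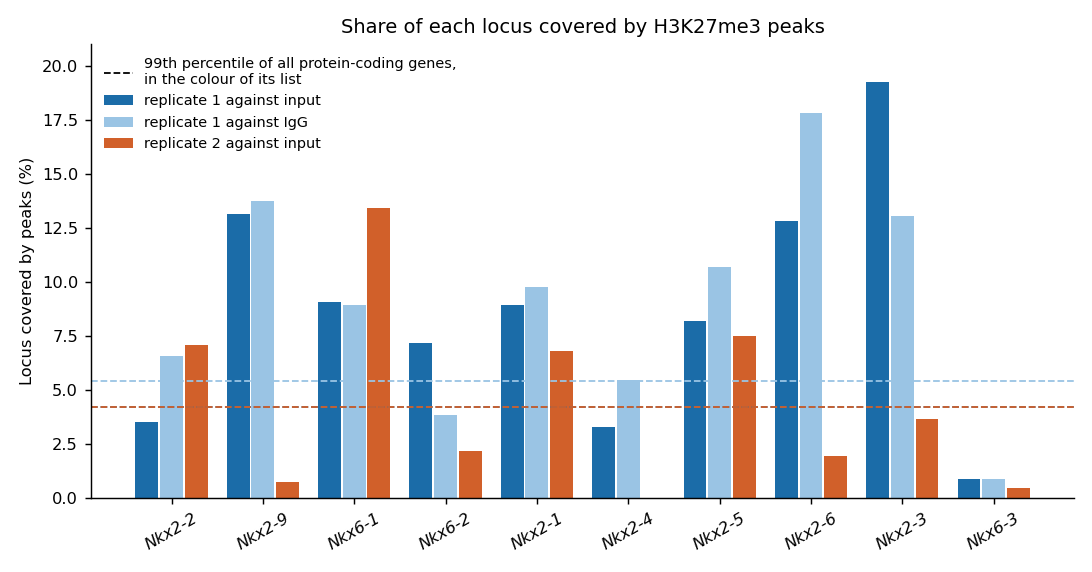
Share of each locus covered by peaks, in percent, for each gene in the 3 lists, with dashed lines at the 99th percentile of all protein-coding genes of each list. The lines of replicate 1 and replicate 2 fall together at 4.24%. Nkx2-1, Nkx2-5 and Nkx6-1 stand above the line in all 3 lists, and Nkx6-3 stands below it in all 3.

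The members of the ventral neural tube and the endocrine pancreas come first. Nkx2-2 specifies V3 interneurons, acts in oligodendrocyte maturation and is needed for insulin-producing beta cells. Its gene (ENSMUSG00000027434.11) lies on the minus strand at chr2:147177546-147194243, and most of it is overlapped by the antisense transcript Nkx2-2os. It held 4 peaks in replicate 1, 8 against IgG and 7 in replicate 2, which covered 3.53%, 6.57% and 7.07% of the locus (mean of the replicates 5.30 ± 2.50%, SD, n = 2). Nkx2-2 was 1 of 2 members, with Nkx6-1, that were covered more in replicate 2 than in replicate 1. All 4 replicate 1 peaks lay in the gene body, 1 of them in coding sequence, and each was also called against IgG. In replicate 2 a peak of 310 bp covered the annotated 5′ end, and in replicate 1 the nearest peak lay 777 bp inside the gene. The RefSeq start site lies 7841 bp further into the GENCODE gene, and the nearest peaks to it were 587 bp away in replicate 1 and 496 bp away in replicate 2.

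Nkx2-9, a close relative of Nkx2-2, is expressed in the ventral neural tube next to the floor plate. Its gene (ENSMUSG00000058669.7) lies on the minus strand at chr12:56611389-56613284. It held 6 peaks in replicate 1, 8 against IgG and 1 in replicate 2, which covered 13.1%, 13.8% and 0.757% of the locus (6.94 ± 8.74%). The spread between the replicates was larger than the mean, and only the replicate 1 values lay above the 99th percentile. The single replicate 2 peak, 90 bp long in the untranslated region, lay 126 bp from the 5′ end. A replicate 1 peak of 355 bp in coding sequence began 252 bp from the same end, so the calls lay side by side without sharing a base. Nkx2-2, Nkx2-5 and Nkx2-9 were the 3 of 10 members with a peak within 1 kb of the 5′ end in both replicates.

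Nkx6-1 specifies motor neurons and is a regulator of beta cell identity. Its gene (ENSMUSG00000035187.10) lies on the minus strand at chr5:101658139-101664996. It held 10 peaks in replicate 1, 10 against IgG and 7 in replicate 2, and the peaks covered 9.08%, 8.94% and 13.4% of the locus (11.2 ± 3.07%). It had the highest covered share of the members in replicate 2, where it stood at the 99.9th percentile of all genes, and in replicate 1 it ranked after Nkx2-3, Nkx2-9 and Nkx2-6. The replicates differed in where the peaks were. Of the 10 replicate 1 peaks, 5 lay in the downstream flank and 1 in the upstream flank, while replicate 2 had 1 downstream and 3 upstream. Within 1 kb of the 5′ end there were 2 replicate 2 peaks, 1 peak against IgG and 0 replicate 1 peaks against input. Nkx6-1 held 2 of the 4 stretches covered in both replicates, 365 bases in all, including the 230-base sequence above.

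Nkx6-2, which acts with Nkx6-1 in ventral progenitors and in oligodendrocytes, differed from it in layout. Its gene (ENSMUSG00000041309.17) lies on the minus strand at chr7:139579376-139582797, and its 3′ end overlaps Inpp5a. It held 5 peaks in replicate 1, 2 against IgG and 1 in replicate 2, which covered 7.18%, 3.85% and 2.21% of the locus (4.69 ± 3.52%). Every one of these peaks lay in the upstream flank, and 0 lay in the gene body in any list. The nearest peak was 248 bp upstream of the 5′ end in replicate 1, 2500 bp against IgG and 3988 bp in replicate 2. Of the 5 replicate 1 peaks, 2 were also called against IgG, and the nearest to the 5′ end was not. The promoter of Nkx6-2 had the highest observed-to-expected CpG ratio of the members (0.979, higher than 97.2% of protein-coding promoters), as measured in 500 bp on each side of the 5′ end.

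Next come the members of the thyroid, lung and forebrain. Nkx2-1, also known as thyroid transcription factor 1, is needed for thyroid, lung and ventral forebrain development. Its gene (ENSMUSG00000001496.15) lies on the minus strand at chr12:56531958-56536908. It held 10 peaks in replicate 1, 8 against IgG and 5 in replicate 2, which covered 8.92%, 9.76% and 6.79% of the locus (7.85 ± 1.5%). The 3 lists were close to each other here and all lay above the 99th percentile. In replicate 1 a peak of 90 bp ran over the 5′ end itself, and all but 1 of its bases were called against IgG, while the nearest replicate 2 peak lay 1344 bp upstream. Replicate 2 placed 2 peaks in the gene body, 1 over coding sequence and untranslated region and 1 in an intron, and 3 in the upstream flank. The upstream flank is also covered by the antisense gene Gm26973, so a peak there belongs to both genes by position.

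Nkx2-4 is a near relative of Nkx2-1 expressed in the hypothalamus and thyroid. Its gene (ENSMUSG00000054160.2) lies on the minus strand at chr2:147083316-147085445. It held 3 peaks in replicate 1, 5 against IgG and 0 in replicate 2, which covered 3.28%, 5.47% and 0% of the locus (1.64 ± 2.32%). All 3 replicate 1 peaks were also called against IgG, and 1 of them, 46 bp long, lay in coding sequence 533 bp from the 5′ end. The nearest replicate 2 peak was 15856 bp from the gene body. A missing replicate 2 call was not rare among genes with such a count: of 424 genes with 3 replicate 1 peaks, 83 (19.6%) had 0 in replicate 2. The mark at Nkx2-4 was therefore not detectable in replicate 2 at the authors' cutoff, which does not show that it was absent.

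Among the members of heart, pharynx and gut, Nkx2-5 is the cardiac progenitor factor of the family. Its gene (ENSMUSG00000015579.5) lies on the minus strand at chr17:26838664-26845009. It held 8 peaks in replicate 1, 12 against IgG and 5 in replicate 2, which covered 8.19%, 10.7% and 7.49% of the locus (7.84 ± 0.498%). It had the smallest spread between replicates relative to its mean of the 10 members. In replicate 1 a peak of 302 bp covered the 5′ end and a second of 346 bp ended at −417 bp upstream of it. In replicate 2 the nearest peaks lay 221 bp and 844 bp inside the gene. The RefSeq start site is 3444 bp further into the gene, and a replicate 1 peak lay 16 bp from it and a replicate 2 peak 627 bp from it. No base was shared between the replicates at Nkx2-5, although their peaks alternated along the locus.

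Nkx2-6 is expressed in pharyngeal endoderm and the embryonic heart. Its gene (ENSMUSG00000044186.10) lies on the plus strand at chr14:69171802-69175518. It held 6 peaks in replicate 1, 9 against IgG and 1 in replicate 2, which covered 12.8%, 17.8% and 1.93% of the locus (7.37 ± 7.69%). Like Nkx2-9, it was high in both lists of replicate 1 and low in replicate 2. The widest replicate 1 peak at the gene, 673 bp in an intron, began 686 bp from the 5′ end, and the replicate 2 peak of 265 bp lay over the untranslated region at the other end of the gene. Its promoter had a low CpG ratio, 0.375, which exceeded that of 38.4% of promoters.

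Nkx2-3 acts in gut mesenchyme and in the vessels of spleen and lymphoid tissue. Its gene (ENSMUSG00000044220.13) lies on the plus strand at chr19:43612325-43615892. It held 10 peaks in replicate 1, 9 against IgG and 2 in replicate 2, which covered 19.2%, 13.1% and 3.65% of the locus (11.4 ± 11.0%). The replicate 1 value was the highest of any member in any list and stood at the 99.96th percentile of all genes. A single replicate 1 peak of 887 bp, the longest at the members, ran from the untranslated region past the 3′ end and made up 887 of the 2609 covered bases. Both replicate 2 peaks lay in the flanks, 2364 bp upstream and 7398 bp downstream of the 5′ end, so the gene body held 0 peaks in replicate 2.

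Nkx6-3 acts in the stomach, where it takes part in the choice between gastric endocrine cell types. Its gene (ENSMUSG00000063672.7) lies on the plus strand at chr8:23153269-23158948. It was the least covered member on average, with 2 peaks in replicate 1, 2 against IgG and 1 in replicate 2, which covered 0.899%, 0.893% and 0.453% of the locus (0.676 ± 0.316%). The peaks were 46 and 95 bp long in replicate 1 and 71 bp in replicate 2. Both replicates had a peak in the untranslated region at the 3′ end, 4966 bp and 4582 bp from the 5′ end, and they did not overlap. Nkx6-3 also had the lowest CpG ratio of the member promoters, 0.275, higher than 31.0% of promoters.

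When the members were ordered by the mean covered share of the replicates, the order was Nkx2-3, Nkx6-1, Nkx2-1, Nkx2-5, Nkx2-6, Nkx2-9, Nkx2-2, Nkx6-2, Nkx2-4 and Nkx6-3. Of the 9 pairs of neighbours in this order, only Nkx6-1 and Nkx2-1 differed by more than the SD of each and without overlap of their values, by 3.39 percentage points. Over all 45 pairs, the values of 18 did not overlap between the replicates. These differences were not tested, since 2 libraries allow only a very weak test. In 8 of 10 members the covered share was higher in replicate 1 than in replicate 2, while over all genes the mean share was higher in replicate 2 (0.316%) than in replicate 1 (0.222%), a ratio of 1.42. The ratio of replicate 2 to replicate 1 ran from 0.0577 at Nkx2-9 to 2.00 at Nkx2-2 among the 9 members with a replicate 2 peak.

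Peaks at the 5′ end were frequent in replicate 1. Within 1 kb of the 5′ end, 9 of 10 members held a peak in replicate 1, 9 against IgG and 4 in replicate 2, and the shares over all genes were 3.87%, 4.52% and 4.16%. In both replicates there were 3 of 10, compared with 1.04%. From 5 kb upstream to 5 kb downstream of the 5′ end, peaks covered 9.12% of bases in replicate 1 and 5.09% in replicate 2, compared with 0.314% and 0.377% over all genes. In the next 10 kb upstream the values were 3.79% and 1.36%, and in the next 10 kb downstream 4.88% and 2.74%, all above the 0.184% to 0.286% of all genes. Upstream, peaks therefore reached past the 5 kb flank, though in replicate 2 each 1 kb bin there rested on at most 3 members. The downstream zone is measured from the 5′ end and lies partly or wholly within the loci, so it does not show reach past the flank.

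**Figure D3:**
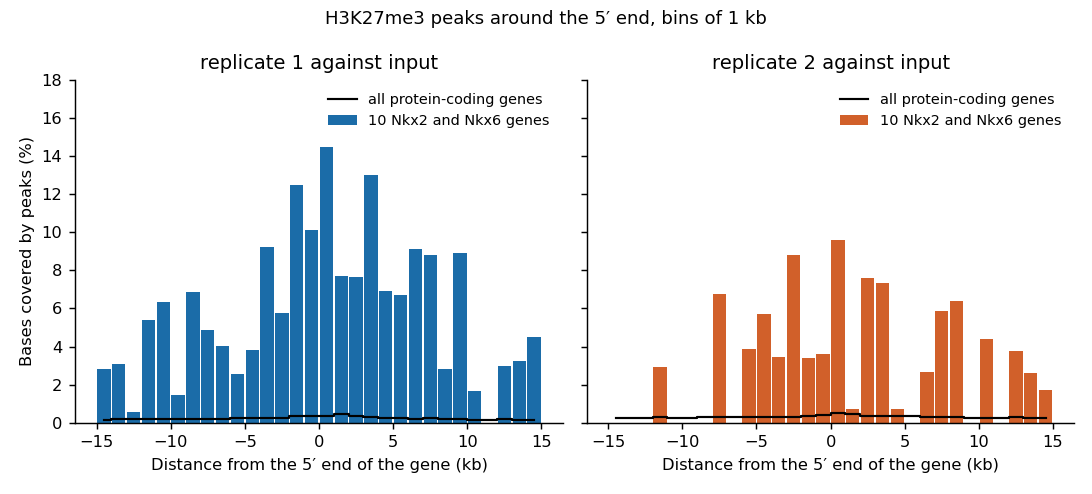
Percentage of bases covered by peaks in 1 kb bins by distance from the 5′ end, in kb, for the 10 genes (bars) and for all protein-coding genes (black line), in each replicate against input. In replicate 1 every bin but 1 is above the line, with the highest bar just downstream of the 5′ end at 14.5%. Replicate 2 has its highest bar in the same bin at 9.57%, and each bar rests on at most 4 genes.

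When peaks 5 kb or less apart were joined, several members lay within broad regions. A joined region of 10 kb or more touched the gene body of 6 of 10 members in replicate 1 and 4 of 10 in replicate 2, compared with 0.989% and 0.547% of all genes. In both replicates there were 3 of 10, Nkx2-1, Nkx2-5 and Nkx6-1, compared with 0.401%. At Nkx2-1 the joined region was 33.7 kb with 23 peaks in replicate 1 and 11.7 kb with 6 peaks in replicate 2. At Nkx6-1 it was 29.3 kb in replicate 1, 15.1 kb against IgG and 21.9 kb in replicate 2. At Nkx2-5 it was 18.9 kb, 28.5 kb and 14.8 kb in the same order. The largest effect of the control was at Nkx2-3, where the region was 11.3 kb against input and 45.1 kb against IgG, and 0 in replicate 2. These lengths are of joined short peaks, most of whose bases were not called. Joining at 2 kb in place of 5 kb left 0 members with a region of 10 kb or more in both replicates.

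Single peaks at the members were short, with median fold enrichments somewhat above those of their lists. They were longer than most peaks of the lists, with medians of 168.5 bp (replicate 1) and 276 bp (replicate 2) set against 119 bp and 181 bp. Their median pileup, the mean number of scaled tags over the peak, was 3.42 in replicate 1 and 6.59 in replicate 2. Their median fold enrichment was 2.77 in replicate 1, 2.78 against IgG and 2.60 in replicate 2, compared with 2.63, 2.66 and 2.45 over the lists. The highest was 3.70, at an intron of Nkx2-3 in replicate 1, and the highest in replicate 2 was 2.89. When only peaks with a fold enrichment of 3 or higher were kept, which left 2040 peaks in replicate 1 and 522 in replicate 2 genome-wide, 0 of 10 members held one in both replicates, compared with 0.251% of all genes. Every replicate 2 peak at the members lay below this cutoff, so the count was 0 whatever replicate 1 held. A −log10 p of 3 or higher left 744 and 3681 peaks. At that setting 4 of 10 members, Nkx2-1, Nkx2-2, Nkx2-6 and Nkx6-1, held one in both replicates, compared with 0.707% of all genes.

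By position, 21 of the 64 replicate 1 peaks lay in the upstream flank, 23 in the gene body and 20 in the downstream flank. In replicate 2, 9 of 30 lay upstream, 17 in the body and 4 downstream. The bases under peaks were richer in G+C than the lists as a whole, with a median of 50.7% against 46.4% in replicate 1 and 55.8% against 45.1% in replicate 2. The median CpG content was 2.17 per 100 bp against 0.741 in replicate 1 and 2.46 against 0.709 in replicate 2. Within the loci the G+C difference was smaller. The bases inside peaks had a higher G+C share than those outside in 7 of 10 members in replicate 1 (median 50.8% inside, 50.4% outside) and in 8 of 9 in replicate 2 (57.2% inside, 50.01% outside). The CpG content did not keep its direction. In replicate 1 it was higher inside peaks in 5 of 10 members (median 2.43 per 100 bp inside, 2.70 outside), and in replicate 2 in 6 of 9 (4.2 inside, 2.77 outside). The median CpG ratio of the 10 promoters, 0.620, was near that of all promoters, 0.552.

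Several members lie near each other, so the space between them was examined. Nkx2-1, Nkx2-9 and Pax9 follow each other on chromosome 12. The 74.5 kb between Nkx2-1 and Nkx2-9 held 10 peaks in replicate 1 and 5 in replicate 2, and the 78.5 kb between Nkx2-9 and Pax9 held 10 and 5. Peaks also lay in mid-gap, as in replicate 1 at 31.7 kb from the 5′ end of Nkx2-1, where a call was made against IgG too. In the 30 kb that begin 85.05 kb from the 5′ end of Nkx2-1, between Nkx2-9 and Pax9, 0 peaks were called in any list. Pax9, which is needed in tooth mesenchyme, held 5 peaks in replicate 1 and 3 in replicate 2 and was covered to 1.98 ± 0.467%, less than Nkx2-1 in both replicates.

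On chromosome 2, the 92.1 kb between Nkx2-4 and Nkx2-2 held 3 peaks in replicate 1, 4 against IgG and 2 in replicate 2, and 6 adjoining windows of 10 kb in the middle held 0 peaks in every list.

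**Figure D4:**
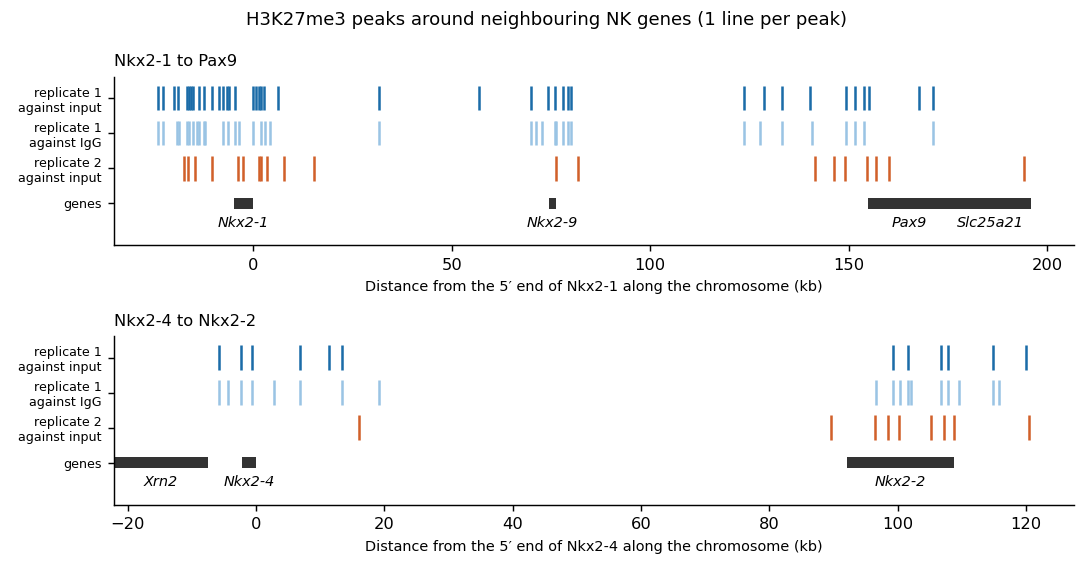
Peaks of each list around 2 groups of neighbouring genes, by distance in kb along the chromosome from the 5′ end of the first gene, with 1 line per peak and gene bodies as dark bars (Pax9 and Slc25a21 touch). Peaks of replicate 1 gather at or near Nkx2-1, Nkx2-9, Pax9, Nkx2-4 and Nkx2-2 with fewer peaks in the gaps between these genes. Replicate 2 had 1 peak at Nkx2-9 and 0 at Nkx2-4. Downstream of Nkx2-1, adjoining windows of 10 kb without a protein-coding gene held 8 and 7 replicate 1 peaks, against 6 in the window of Nkx2-1. In replicate 2 these windows held 2 and 2, against 5.

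Other protein-coding neighbours within 100 kb were also examined. Of 10 such genes, 4 held 0 peaks in both replicates and 3 held peaks in both. The member was covered more than its neighbour in both replicates for 8 of the 10. Each neighbour is longer than the member beside it, and a peak covers less of a longer locus. What length contributes was not tested. The exceptions were Xrn2 beside Nkx2-4, where both had 0 in replicate 2, and Pax9. Slc25a28, Bnip1, Kifc5b and Gpat4 held 0 peaks in both replicates, and Got1 held 0 in replicate 1 and 1 in replicate 2. Ank1 and Cfap46, both long genes, held peaks in both replicates and were covered to 0.378 ± 0.0716% and 0.433 ± 0.00685%. By number of peaks, Ank1 held 9 in replicate 1 and 4 in replicate 2, more than the 2 and 1 at Nkx6-3. Cfap46 held 4 and 2, against 5 and 1 at Nkx6-2. The loci of Ank1, Inpp5a and Xrn2 share bases with that of the member beside them, so 1 peak can count for both. Inpp5a, which overlaps Nkx6-2, held 2 peaks in replicate 1 and 0 in replicate 2.

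The members were last set beside 3 lists of related genes. Among 15 other NK-like homeobox genes, 12 held a peak in both replicates, and the median of their mean covered share was 6.13%, compared with 7.15% for the members. Overlapping peaks of both replicates were found at 7 of the 15. Tlx1, needed for the spleen, and Lbx1, which acts in migrating muscle precursors, were highest with 11.4 ± 3.79% and 11.1 ± 0.991%. Nkx3-2, a gene of the axial skeleton and the jaw joint, had 6.84 ± 0.847% and Tlx3, a sensory neuron gene, 7.28 ± 2.32%. Msx2 held 0 peaks in both replicates, and Msx1, the homeobox gene of tooth mesenchyme, held 0 in replicate 1 and 1 in replicate 2. Barx2 and Lbx2 were also low, with 0.898 ± 0.184% and 1.45 ± 2.05%.

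Among 22 genes that act with the members in neural tube, pancreas, thyroid, lung and heart, 19 held a peak in both replicates, 13 held overlapping peaks, and the median was 4.73%. Olig2, which marks motor neuron and oligodendrocyte progenitors, was highest with 16.5 ± 7.58%. Pdx1, needed for pancreas formation, had 10.8 ± 0.174%. Ptf1a, of the exocrine pancreas, had 10.1 ± 3.45%, and Isl1 and Dbx1 had 7.90 ± 0.410% and 8.10 ± 0.221%. Shh, the upstream signal in the neural tube, was low with 1.39 ± 0.308%. Pax4 was lowest with 0.135 ± 0.191%, and with Irx3 and Mef2c it was among the 3 without a peak in both replicates.

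Of 12 dental mesenchyme genes, 7 held a peak in both replicates, 0 held overlapping peaks, and the median was 0.526%. Barx1, which marks molar mesenchyme and is counted also among the NK-like genes, was highest with 2.27 ± 2.1%, Pax9 followed with 1.98 ± 0.467%, and Dlx2 held 0 peaks. In replicate 1, the lowest of the members, Nkx6-3, was covered more than the median dental mesenchyme gene (0.465%), and in replicate 2 (median 0.876%) it was covered less. In replicate 2 the median of the members (2.93%) lay below that of the NK-like (5.63%) and the partner genes (3.76%), whereas in replicate 1 (8.55%) it lay above both (4.69% and 5.28%). By median covered share, the place of the members among the homeobox and partner lists therefore depended on the replicate. Their place above the dental mesenchyme list did not. The dental mesenchyme genes are longer, with a median body of 14.1 kb against 4.33 kb, and a peak covers less of a longer locus. What length contributes was not tested. A peak was held by 8 of 12 of them and 10 of 10 members in replicate 1, and by 10 of 12 and 9 of 10 in replicate 2.

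**Figure D5:**
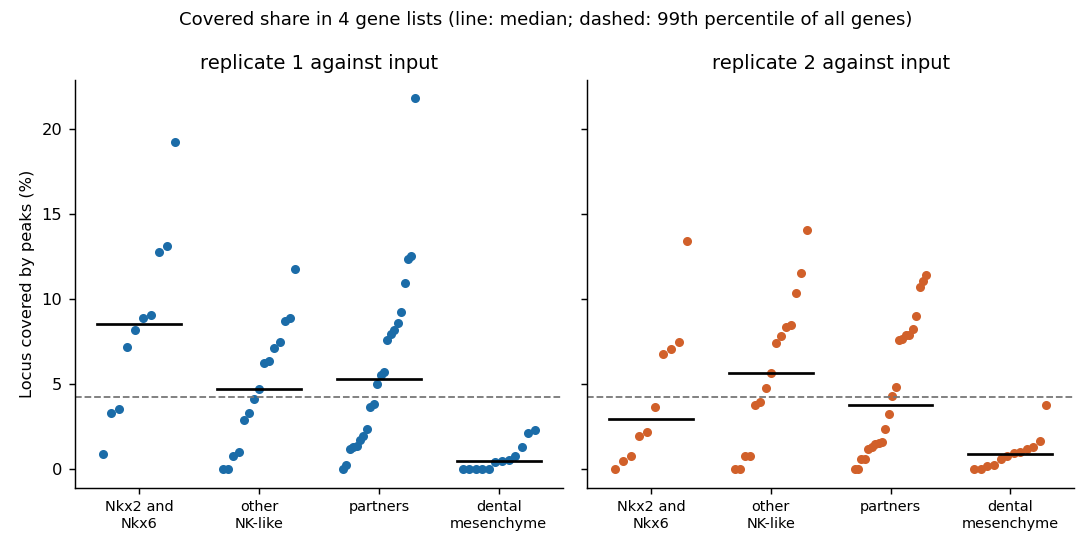
Share of each locus covered by peaks, in percent, for every gene of 4 lists in each replicate against input. Points are genes, black lines the list medians and dashed lines the 99th percentile of all protein-coding genes (4.24% in both). The dental mesenchyme genes lie below the dashed line in both replicates, and the members lie on both sides of it.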

How the data were processed

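H3K27me3 ChIP-seq libraries of molar mesenchyme were analysed from the deposited peak lists. Per the study's methods and labels, the authors aligned reads with BWA to the mouse genome (mm10, GRCm38), kept uniquely mapped reads and called broad peaks per library with MACS 2.1.1.20160309 at a p-value cutoff of 0.005. The submitters' processing notes also name SAMtools and Partek. Per the file headers MACS modelled fragments of 46 bp (replicate 1) and 71 bp (replicate 2), shorter than the tags. The command line in the headers also gave an extension size of 200. What these lengths contribute to the width of peaks was not tested. The deposited pileup is a signal, in scaled tags. The deposited fold enrichment relates pileup to the local control background as a ratio, and the deposited p-value is on a −log10 scale. All 3 depend on depth. Medians were set beside those of the same list, but the cutoffs on fold enrichment and −log10 p were the same for both replicates. The 2 further formats of each list were not used.

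Peaks were joined to GENCODE M21 genes (overlap of at least 1 base) and to the GRCm38.p6 RefSeq sequence with Python 3.11.15, numpy 2.4.6 and pandas 2.3.3. Interval functions were checked on simulated data. Groups and replicates were taken from the labels. All 10 genes are named. The nearest protein-coding neighbours within 100 kb are also named, together with genes of the other lists that hold peaks in both replicates or have the highest or lowest covered share. Further genes of those lists that missed a peak in a replicate were named after their values were seen. Printed sequences are the stretches covered in both replicates, at most 300 bases and 1 per gene, outside annotated untranslated regions. One gene of the lists and neighbours is not reported here. The members and lists were chosen with earlier results of these data known. No test between groups was possible, since 2 libraries of 1 group were given. Counts are set beside all 21938 protein-coding genes, which are not matched for CpG content. They are not matched for length either, except where genes with bodies in the members' range are named. Locus size, peak threshold, control, replicate, overlap and joining distance were varied.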

Additional observations from a re-analysis of the deposited data

How the results depend on the processing

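The number of members with a peak in both replicates was 7 to 9 when the flanks, the control or the size of the replicate 2 list was changed, and fell under stricter peaks. With a fold enrichment of 3 or higher, members with a peak in both replicates, with one near the 5′ end, with overlapping peaks and with a joined region of 10 kb each numbered 0, compared with 55, 2, 5 and 0 of 21938 protein-coding genes, the mean peak count was 8.5 and the median covered share 1.19%. With a −log10 p of 3 or higher, 4 members held a peak in both replicates, 0 met each of the other 3 criteria (all genes: 155, and 6, 18 and 0), the mean peak count was 9.5 and the median covered share 0.838%. Both thresholds keep few peaks of either list by construction. The fold enrichment cutoff lay above every replicate 2 peak at the members, so its counts over both replicates were 0 whatever replicate 1 held.

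With the gene body alone, 1 member had overlapping peaks and the mean peak count was 20. With replicate 1 called against IgG, 5 members had overlapping peaks. With replicate 1 against input, 9 did when peaks within 1 kb of each other were counted as shared. With a window of 2 kb, 5 members had a peak near the 5′ end in both replicates. Joining peaks at 2 kb left 0 members with a region of 10 kb or more in both replicates, and joining at 10 kb gave 5, so the joined regions depend on that distance. No share over all genes is given for these altered settings. A looser setting can raise the count of any set of genes. With 1 replicate left out, peaks at the members numbered 30 to 64, members with a peak near the 5′ end 4 to 9, members with a joined region 4 to 6, members with a peak 9 to 10, and the median covered share 2.93% to 8.55%. Leaving out a replicate gives counts of a single list, which cannot show that a count over both is stable. For single members, 42 of 60 covered shares under the other alternatives moved by less than the SD of the replicates and 18 by more.

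No paired analysis was possible because all H3K27me3 libraries belong to 1 group. Most peaks rest on few tags, and the depth limits what a missing peak can show.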
